A study of Mus musculus with 8 samples.

Results

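The Wnt genes of cultured mouse forelimb buds are described here: ligands, receptors, R-spondins with their receptors, secreted inhibitors, and Axin2, Lef1 and Tcf7, which report or relay the signal. They were taken by gene symbol from the deposited table, and 49 of its 21692 genes matched. Wnt1 and Wnt8a are not analysed here. By role the 49 are 17 ligands, 12 frizzled and LRP receptors, 7 R-spondin and LGR genes, 10 secreted inhibitors and 3 transcriptional readouts. Their symbols alone chose them, and the rule used no measured value. Earlier results of these data were, however, known when the rule was set.

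The buds came from CD1 mouse embryos of gestation day 13 and were cultured for 24 h. Organophosphate esters (OPE) are used as flame retardants and to soften plastics, and the buds received a blend of them modelled on Canadian house dust, diluted 1 in 300000, or the vehicle dimethyl sulfoxide (DMSO). Each group had 4 RNA-seq libraries, called OPE 1 to 4 and vehicle 1 to 4. The labels give the strain as CD1 with no engineered allele, and they do not say whether the libraries of a group came from separate litters, pools or cultures. The p-values therefore measure the spread between these samples, which may be technical.

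Totals of counted reads ran from 14986793 to 21806141 in OPE libraries and from 17549560 to 22006738 in vehicle libraries (exact permutation p = 0.20, two-sided, 8 libraries). In a principal component analysis of log2 CPM (read counts scaled to library size with TMM factors), OPE 3 lay far from the rest on component 1 and OPE 1 on component 2. The forelimb factor Tbx5 averaged 76.8 FPKM (reads scaled by gene length and library total) with OPE and 73.2 FPKM with vehicle, while the hindlimb genes Tbx4 (7.67 FPKM with OPE and 8.88 FPKM with vehicle) and Pitx1 (1.40 FPKM with OPE and 1.38 FPKM with vehicle) were lower in level. Sums of marker genes did not overlap between the groups for 3 of the cell types listed. They overlapped for limb mesenchyme, cartilage, ectoderm and its apical ridge, muscle, tendon, joint, Schwann cells and erythroid cells. The 7 macrophage markers in the table, of 8 listed, summed to 21.7 to 56.0 CPM with OPE and 121 to 139.8 CPM with vehicle, and 6 of them fell (edgeR, adjusted p under 0.05). The 6 osteoblast markers summed to 36.5 to 70.7 CPM with OPE and 131 to 255 CPM with vehicle, and 3 of the 5 tested fell. The 6 endothelial markers summed to 107 to 206 CPM with OPE and 223 to 275 CPM with vehicle, and none passed. Fold changes of 5 of the 6 were below 0, and Emcn was higher with OPE (0.34 ± 0.16, edgeR adjusted p = 0.417). Of the macrophage, osteoblast and endothelial markers, Bglap alone had no read in a library, OPE 4. In bulk RNA, fewer cells of a type and less RNA per cell cannot be told apart.

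Wnt proteins are secreted lipid-modified ligands that bind frizzled receptors. With the co-receptors LRP5 or LRP6 they stabilise beta-catenin, which acts in the nucleus with factors of the TCF and LEF family and induces the feedback inhibitor Axin2. R-spondins, through LGR4, LGR5 and LGR6, keep frizzled receptors at the cell surface, and secreted inhibitors either capture the ligands (SFRP proteins, FRZB, WIF1) or block LRP5 and LRP6 (DKK1). In the limb, Wnt genes of the surface ectoderm help to pattern the bud and to hold cartilage away from its edge, and Wnt5a of the mesenchyme directs outgrowth.

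Promoter windows are shown for Lgr6, the single member that passed the test below, and for Dkk1, a textbook beta-catenin target among the members of lowest fold change. Each is the 300 bases around the start RefSeq gives (250 before and 50 after), on GRCm38.p6 and on the gene's strand. For Lgr6 that start is the one in the deposited table. For Dkk1 the deposited table has the gene start 169 bases further upstream, so that both of its matches lie inside the gene as tabulated. Capitals mark matches, on either strand, to the TCF/LEF-type words CTTTGAT and CTTTGAA or to the TATA word TATAAA, which do not overlap here. Lgr6 is read from chr1:135105227-135105526 on the minus strand, and Dkk1 from chr19:30549447-30549746 on the minus strand.
Lgr6: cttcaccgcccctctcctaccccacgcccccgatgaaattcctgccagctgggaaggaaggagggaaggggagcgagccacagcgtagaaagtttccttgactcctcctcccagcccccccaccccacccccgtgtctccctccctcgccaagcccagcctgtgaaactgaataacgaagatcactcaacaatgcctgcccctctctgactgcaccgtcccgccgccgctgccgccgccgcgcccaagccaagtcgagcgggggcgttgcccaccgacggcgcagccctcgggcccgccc
Dkk1: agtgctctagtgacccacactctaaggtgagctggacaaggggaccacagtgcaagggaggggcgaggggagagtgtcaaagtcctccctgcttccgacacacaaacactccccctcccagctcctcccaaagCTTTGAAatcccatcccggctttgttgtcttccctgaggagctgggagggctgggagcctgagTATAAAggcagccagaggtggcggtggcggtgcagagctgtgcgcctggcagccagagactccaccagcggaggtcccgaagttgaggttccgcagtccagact
The Lgr6 window holds neither kind of word and has 24 CpG pairs. In Dkk1 a CTTTGAA begins 117 bases before the RefSeq start and a TATAAA 54 bases before it, and the window has 9 CpG pairs. Of 40 windows found for 33 of the members, 7.5% held a TCF/LEF word, against 8.65% of all 32851 windows, and 17.5% held a TATA word, against 13.6% of all. The members' windows had a median of 67.0% G and C, against 52.7% over all windows. These are matches of letters and no evidence of binding.

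The most abundant members were Sfrp2, an inhibitor of limb mesenchyme and forming joints, and the receptor gene Fzd2. Sfrp2 averaged 132 ± 4.36 FPKM in OPE libraries and 130.2 ± 5.95 FPKM in vehicle libraries (SD, n = 4 each). Fzd2 averaged 116 ± 3.79 FPKM with OPE and 106 ± 2.34 FPKM with vehicle. Sfrp2 held 53.6 ± 2.23% of the FPKM of the 10 inhibitors with OPE and 51.4 ± 1.60% with vehicle, and Fzd2 held 38.0 ± 3.56% of the receptor FPKM with OPE and 35.4 ± 2.33% with vehicle. Wnt5a led the ligands, at 36.1 ± 4.53 FPKM with OPE and 44.6 ± 4.55 FPKM with vehicle, and held 37.4 ± 4.47% of the ligand FPKM with OPE and 40.4 ± 3.49% with vehicle.

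**Figure D1:**
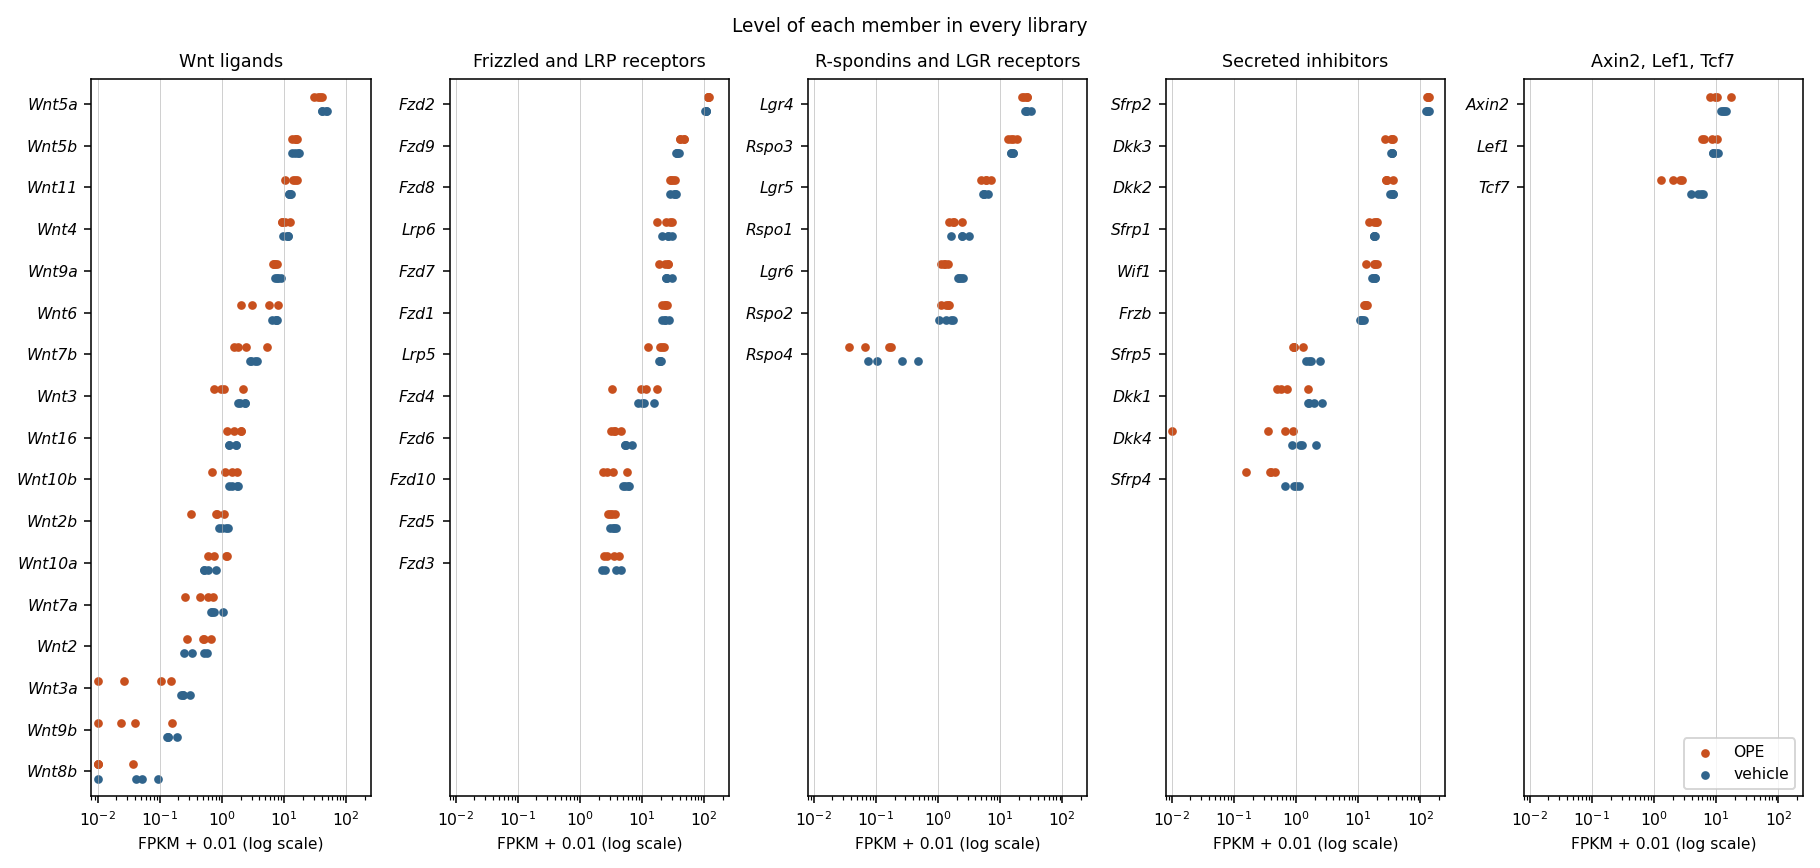
FPKM plus 0.01 on a log axis for all 49 members, by role, with 1 point per library (OPE above vehicle, 4 libraries each). Members run from over 100 FPKM (Fzd2, Sfrp2) to near 0 (Wnt8b), and the spread of the points is wider among the low members.

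After Wnt5a, which no other ligand overlapped in either group, came Wnt5b, a ligand of maturing cartilage, at 15.0 ± 1.10 FPKM with OPE and 15.6 ± 1.67 FPKM with vehicle. Wnt11, a ligand of cell polarity signalling, averaged 13.8 ± 2.40 FPKM with OPE and 12.4 ± 0.561 FPKM with vehicle. The order of Wnt5b and Wnt11 held in 7 of 8 libraries, and their ranges overlapped with OPE. Among the receptors Fzd2, Fzd9 and Fzd8 did not overlap in either group, while Fzd8, Lrp6, Fzd7 and Fzd1 overlapped from neighbour to neighbour. Lgr4 averaged 25.0 ± 2.41 FPKM with OPE and 27.2 ± 2.86 FPKM with vehicle. It stood above Rspo3 (15.7 ± 2.15 FPKM with OPE and 15.6 ± 0.83 FPKM with vehicle) and Rspo3 above Lgr5 (5.97 ± 0.921 FPKM with OPE and 5.62 ± 0.464 FPKM with vehicle), with no overlap. Below Sfrp2, Dkk3 lay above Dkk2 in 4 of 8 libraries. Axin2 lay above Lef1 and Lef1 above Tcf7 in all 8 libraries. Summed by role, the ligands came to 96.7 ± 9.52 FPKM with OPE and 110.3 ± 1.95 FPKM with vehicle, where OPE 2 at 110.5 FPKM lay inside the vehicle range and the other OPE libraries lay below it. The receptors summed to 305 ± 17.8 FPKM with OPE and 298 ± 15.9 FPKM with vehicle, and the R-spondin and LGR genes to 51.2 ± 3.90 FPKM with OPE and 54.7 ± 2.66 FPKM with vehicle. Unlike the fold changes below, FPKM carry no TMM factors, which were 0.930 to 1.00 in OPE libraries and 1.01 to 1.02 in vehicle libraries. Small group differences in FPKM are therefore not read as changes.

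Of the 49 members 47 held enough reads to be tested. One passed an adjusted p of 0.05 and was lower with OPE (edgeR quasi-likelihood test, Benjamini-Hochberg over 15517 genes), which is 2.13% of those tested, against 0.477% of all genes called in either direction, 0.438% lower and 0.0387% higher. Of all genes, 6 were higher and 68 lower; with each library's trend on gene length removed, the numbers were 151 and 171. Unadjusted p was under 0.05 for 14 members, or 29.8%, against 13.2% of all genes tested. Of these 14, 11 were lower (23.4% of those tested, against 7.31% of all genes) and 3 higher (6.38%, against 5.85%). The 4 OPE values lay wholly outside the 4 vehicle values for 10 members, or 21.3%, against 9.49% of all genes. Of these 10, 7 lay lower with OPE (Wnt3a, Sfrp4, Dkk1, Tcf7, Sfrp5, Lgr6 and Fzd6), or 14.9% against 5.44% of all genes, and 3 higher (Fzd2, Frzb and Fzd9), or 6.38% against 4.05%. Fold changes were below 0 for 30 members, or 63.8%, against 47.2% of all genes. That count was 37 with library totals and 24 with the length trend removed. The median log2 fold change was -0.07 over the members and 0.01 over all genes tested, and -0.01 and 0.05 with the length trend removed.

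**Figure D2:**
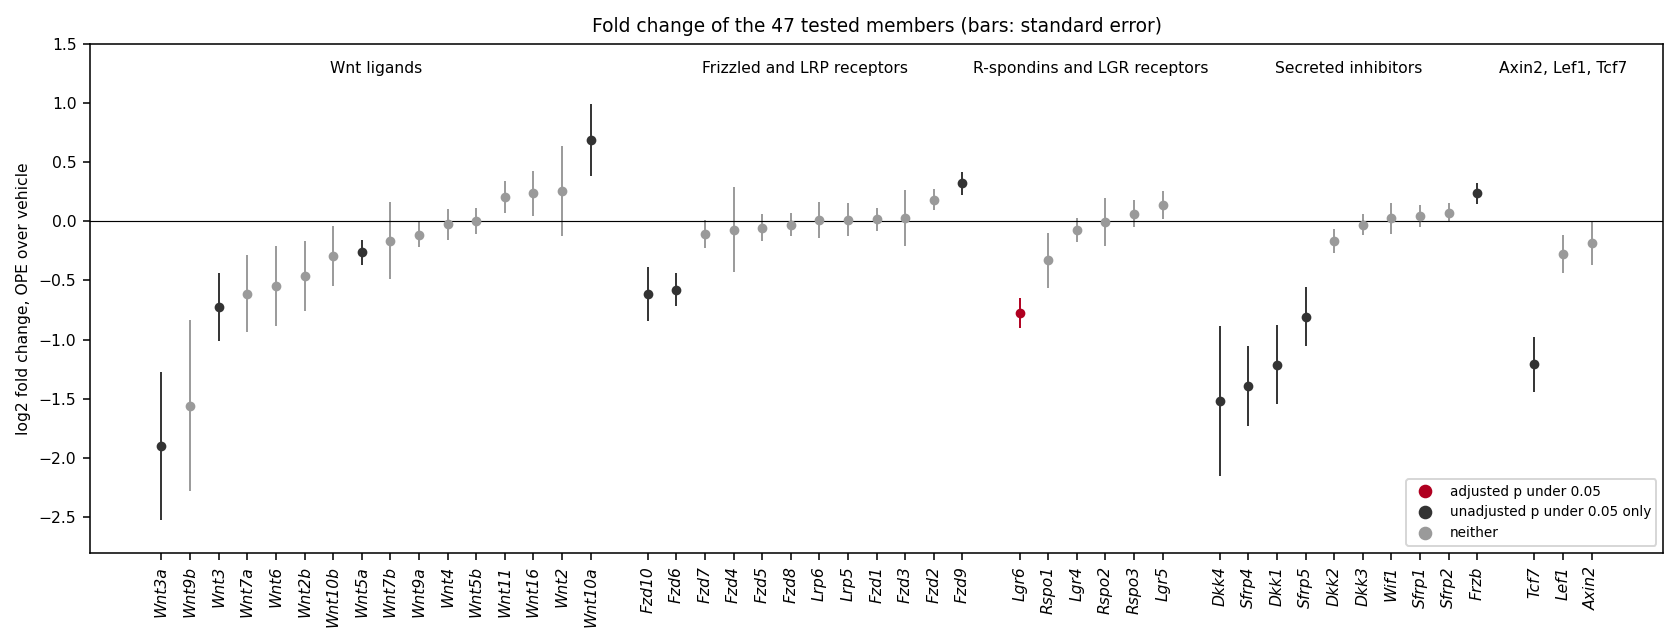
Log2 fold change of OPE over vehicle with its standard error for the 47 tested members, ordered within each role. Only Lgr6 passed the adjusted threshold, and members with an unadjusted p under 0.05 lie mostly below 0.

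The fold changes of low members were spread more widely than those of abundant ones. The 21 with a mean of at least 10 FPKM had log2 fold changes between -0.26 and 0.32, with a median of 0.01. The 26 below 10 FPKM had a median of -0.51 and ran from -1.90 to 0.69. Since low members carry wider errors, these ranges are given as a description with no test. The same split was not made over all genes, so the medians have no background of like level here.

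Lgr6, an R-spondin receptor known from stem cells of the skin, fell. It had 9.83, 8.21, 8.05 and 8.66 CPM in OPE 1 to 4, against 15.3, 14.2, 13.6 and 16.6 CPM in vehicle 1 to 4. The groups were well apart, and each was tight. Its log2 fold change was -0.78 ± 0.13 (SE; edgeR adjusted p = 0.036). Its share of the R-spondin and LGR FPKM was 2.49 ± 0.18% with OPE and 4.17 ± 0.532% with vehicle. The gene spans chromosome 1 from 134983301 to 135105276 (mm10, minus strand), and no other gene of the table overlaps it.

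The fold change of Lgr6 was stable while its call was not. Leaving out 1 library at a time moved the log2 fold change only between -0.85 and -0.73, but edgeR adjusted p lay between 0.0169 and 0.119. The call ended without OPE 2 (0.0787) and without any 1 of the vehicle libraries. Without both OPE 1 and OPE 3 Lgr6 gave -0.82 ± 0.14 (edgeR adjusted p = 0.0235), and with the length trend removed -0.70 ± 0.12 (edgeR adjusted p = 0.0167). The macrophage, osteoblast and endothelial marker sums given above also lay apart between the groups, and their part in this result was not tested.

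The other R-spondin genes and receptors did not pass. Lgr4, the broadly expressed receptor, gave -0.07 ± 0.10 (edgeR adjusted p = 0.824), which was 0.01 with the length trend removed. Lgr5, a stem cell receptor and Wnt target, gave 0.14 ± 0.12 (edgeR adjusted p = 0.694), which was 0.03 without OPE 1. Of the ligands, Rspo3 gave 0.06 ± 0.11, Rspo2, which limb outgrowth requires, -0.01 ± 0.20, and Rspo1 -0.33 ± 0.23. Rspo4, known for nail development, was too low to test, with 8, 6, 1 and 2 reads in OPE 1 to 4 and 4, 3, 23 and 13 reads in vehicle 1 to 4. Its ratio of depth-scaled reads was 0.485 (exact 95% binomial interval 0.259 to 0.868, which covers counting error only), and 23 of its 43 vehicle reads came from vehicle 3.

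**Figure D3:**
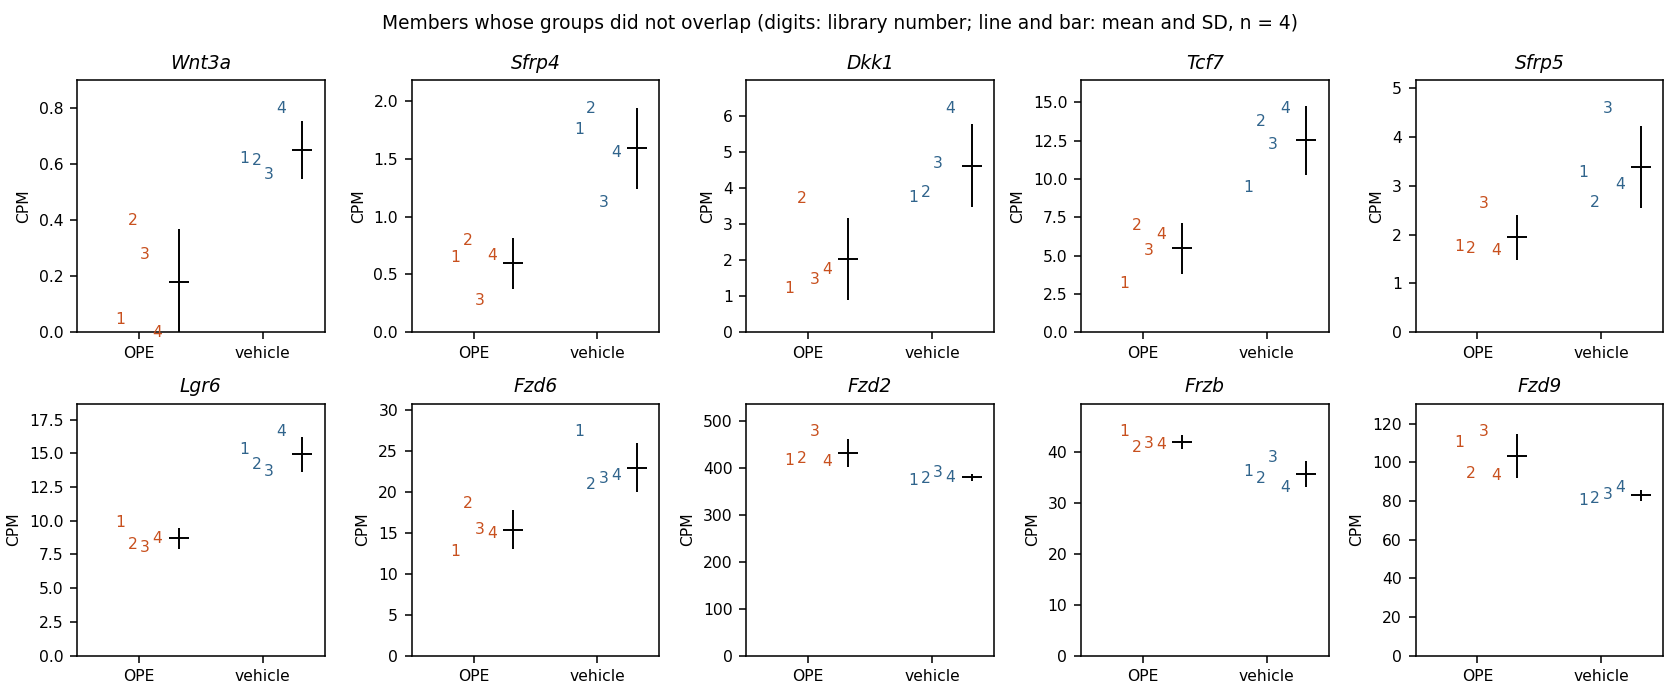
CPM, from 0, in each library (digits give the library number) for the 10 members whose OPE values, on the left, did not overlap the vehicle values, with mean and SD (n = 4 each; the bar of Wnt3a ends at the axis). Lgr6 and Frzb are tight within OPE, while OPE 2 is the highest of its group for Wnt3a, Sfrp4, Dkk1, Tcf7 and Fzd6.

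Tcf7, a TCF-family factor that Wnt signals act through, came next to Lgr6 in strength and missed the threshold. It had 3.18, 6.95, 5.34 and 6.39 CPM in OPE 1 to 4, against 9.43, 13.7, 12.3 and 14.6 CPM in vehicle 1 to 4. All OPE values were below all vehicle values, with OPE 1 the lowest of the 8. Its log2 fold change was -1.21 ± 0.23 (edgeR adjusted p = 0.0522). Over the 20 other settings it stayed between -1.35 and -0.91, and edgeR, DESeq2 or limma adjusted p between 0.000163 and 0.162, under 0.05 in 10 of them. Without both OPE 1 and OPE 3 it was -0.91 ± 0.19 (edgeR adjusted p = 0.0639). Tcf7 lies on chromosome 11 (52252371 to 52283014, minus strand) and overlaps 2 non-coding genes with 2.69% and 1.67% of its own count.

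The other readouts split by library. Axin2, the feedback inhibitor that marks active beta-catenin signalling, had 44.1, 72.6, 36.3 and 41.1 CPM in OPE 1 to 4, against 61.5, 53.5, 50.7 and 54.5 CPM in vehicle 1 to 4. OPE 2 was thus above every vehicle library, and the other OPE libraries below. Lef1, a partner of beta-catenin, had 21.6, 37.2, 24.9 and 30.6 CPM with OPE and 39.2, 31.5, 32.0 and 35.5 CPM with vehicle, and OPE 2 was again the highest of its group. Axin2 gave -0.18 ± 0.19 and Lef1 -0.28 ± 0.16 (edgeR adjusted p = 0.755 and 0.507). Without OPE 2 they were -0.44 ± 0.12 and -0.43 ± 0.15 (edgeR adjusted p = 0.153 and 0.268), and without both OPE 1 and OPE 3 they were 0.05 ± 0.20 and -0.02 ± 0.12.

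Among the secreted inhibitors, the 4 of lowest level had the lowest fold changes. None of the 10 passed in edgeR or limma-voom, and DESeq2, which called 536 of all 15517 genes, called Dkk1 and Sfrp4. At an unadjusted p under 0.05 in edgeR 4 were lower and 1 higher, against 7.31% and 5.85% of all genes. Dkk1, which blocks LRP5 and LRP6, had 1.20, 3.71, 1.46 and 1.73 CPM in OPE 1 to 4, against 3.73, 3.88, 4.68 and 6.21 CPM in vehicle 1 to 4. OPE 2 lay just under the lowest vehicle library. Dkk1 gave -1.21 ± 0.34 (edgeR adjusted p = 0.15), which was -1.67 ± 0.27 without OPE 2 and -0.77 ± 0.32 without both OPE 1 and OPE 3 (edgeR adjusted p = 0.0529 and 0.412).

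Sfrp4, a Wnt-binding protein of bone and connective tissue, had 0.646, 0.794, 0.277 and 0.666 CPM with OPE, against 1.75, 1.94, 1.12 and 1.55 CPM with vehicle, which rest on 4 to 14 reads per OPE library and 24 to 38 per vehicle library. The groups did not overlap, and the log2 fold change was -1.39 ± 0.34 (edgeR adjusted p = 0.101). Sfrp5, also a Wnt-binding protein, gave -0.81 ± 0.25 (edgeR adjusted p = 0.184), with 25 to 38 reads per OPE library and 52 to 98 per vehicle library. Dkk4, a Wnt target of skin ectoderm, gave -1.52 ± 0.64 (edgeR adjusted p = 0.337) from 0, 13, 7 and 17 reads with OPE and 26, 21, 34 and 59 reads with vehicle. At these counts the values are imprecise, and the groups of Dkk4 overlapped in CPM. Dkk4 gave -1.03 without OPE 1, -0.77 without both OPE 1 and OPE 3 and -2.52 with limma-voom.

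The abundant inhibitors moved little. Frzb, a Wnt-binding protein of cartilage, was higher in every OPE library, at 44.0, 40.9, 41.6 and 41.5 CPM, against 36.1, 34.8, 38.9 and 32.9 CPM with vehicle. Its log2 fold change was 0.24 ± 0.09 (edgeR adjusted p = 0.277). Sfrp2, Sfrp1 and Wif1 gave 0.07 ± 0.08, 0.05 ± 0.09 and 0.03 ± 0.13. Dkk2 gave -0.17 ± 0.10 and Dkk3, a relative that does not act as a typical LRP blocker, -0.03 ± 0.09. The summed FPKM of the 10 inhibitors, without TMM factors, was 247 ± 9.76 with OPE and 253 ± 4.38 with vehicle, a difference not read as a change.

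Of the 12 receptors none passed in edgeR or limma-voom. At an unadjusted p under 0.05 in edgeR 2 were lower and 1 higher, against 7.31% and 5.85% of all genes. DESeq2, which called 536 of all 15517 genes, called Fzd6 and Fzd9. For 3 of the 12 receptors the groups did not overlap, against 9.49% of all genes in either direction. Fzd6, known for hair patterning and planar polarity, had 12.7, 18.6, 15.3 and 14.9 CPM in OPE 1 to 4, against 27.3, 20.9, 21.6 and 21.9 CPM in vehicle 1 to 4. It gave -0.58 ± 0.14 (edgeR adjusted p = 0.102). Fzd9, which osteoblasts use in bone formation, was higher, at 110.5, 94.3, 115.9 and 93.2 CPM, against 80.2, 81.2, 83.4 and 86.8 CPM with vehicle. It gave 0.32 ± 0.09 (edgeR adjusted p = 0.17), 0.34 ± 0.08 with the length trend removed, where it passed (edgeR adjusted p = 0.0468), and 0.18 ± 0.08 without both OPE 1 and OPE 3. Fzd2 gave 0.18 ± 0.09 (edgeR adjusted p = 0.402), and OPE 3 was its highest library.

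Fzd10 had 8.86, 18.6, 8.18 and 11.0 CPM in OPE 1 to 4, against 19.2, 16.6, 15.8 and 19.7 CPM in vehicle 1 to 4. OPE 2 lay inside the vehicle range and the others below it. Fzd10 gave -0.62 ± 0.23, -0.93 ± 0.16 without OPE 2 and -0.27 ± 0.19 without both OPE 1 and OPE 3 (edgeR adjusted p = 0.279, 0.0594 and 0.716). Fzd4, a receptor of blood vessels, varied most within a group among the receptors, with 63.3, 34.8, 13.1 and 43.2 CPM in OPE 1 to 4 and 56.8, 31.1, 35.8 and 39.2 CPM in vehicle 1 to 4. It gave -0.07 ± 0.36. Lrp5 and Lrp6 each gave 0.01, with errors of 0.14 and 0.15, and the other 5 frizzled genes lay between -0.11 and 0.03.

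None of the 16 ligands tested passed in edgeR, DESeq2 or limma-voom. At an unadjusted p under 0.05 in edgeR 3 of them were lower and 1 higher, against 7.31% and 5.85% of all genes. Wnt5a gave -0.26 ± 0.11 (edgeR adjusted p = 0.326), with 34.7, 40.7, 30.4 and 38.4 FPKM in OPE 1 to 4 and 49.2, 40.6, 47.9 and 40.9 FPKM in vehicle 1 to 4, so that OPE 2 lay inside the vehicle range. Wnt3a, a ligand of the canonical pathway, had 1, 6, 4 and 0 reads with OPE and 11, 12, 12 and 18 reads with vehicle. It gave -1.90 ± 0.63 (edgeR adjusted p = 0.214). Wnt9b, also near 0, gave -1.56 ± 0.72 (edgeR adjusted p = 0.39). Wnt8b was not tested, with 2 reads with OPE and 10 with vehicle (ratio of depth-scaled reads 0.245, exact 95% binomial interval 0.0261 to 1.15).

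Of the ligands known from other limb tissues, Wnt5b, Wnt11, Wnt9a, Wnt16, Wnt2 and Wnt2b had an unadjusted p above 0.05 in edgeR. Wnt5a, given above, had an unadjusted edgeR p of 0.033. Wnt5b gave 0.00 ± 0.11, and its sign changed in several settings. Wnt11 gave 0.21 ± 0.14, which was 0.10 without OPE 3, 0.32 without OPE 4 and 0.06 without both OPE 1 and OPE 3. Wnt9a, a ligand of forming joints, gave -0.11 ± 0.11, Wnt16, also of joints, 0.24 ± 0.19, Wnt2 0.25 ± 0.38 and Wnt2b -0.47 ± 0.30. Wnt5b overlaps Fbxl14 on the other strand, whose reads were 133% of its own, so its count is uncertain unless the counting used strand.

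Ligands with known expression in limb ectoderm were chosen from textbook knowledge: Wnt3, Wnt4, Wnt6, Wnt7a, Wnt7b, Wnt10a and Wnt10b. Together they summed to 15.9, 29.6, 24.1 and 17.4 FPKM in OPE 1 to 4, and to 24.5, 28.0, 24.7 and 28.2 FPKM in vehicle 1 to 4. In FPKM, OPE 1 and OPE 4 were well below the vehicle range, OPE 3 was just below it and OPE 2 above it. The 9 ectoderm markers, none at 0 in any library, summed to 205, 423, 315 and 176 CPM in OPE 1 to 4, and to 350.3, 344, 276 and 334 CPM in vehicle 1 to 4. In these CPM, OPE 1 and OPE 4 were below the vehicle range, OPE 3 inside it and OPE 2 above it. FPKM leave out the TMM factors, which were 0.930 for OPE 3 and 1.01 to 1.02 for the vehicle libraries. The place of OPE 3 is therefore not compared between the ligand and marker sums. In OPE 3, however, Krt5 lay below every vehicle library, at 59.2 CPM, and Krt14 above every one, at 137 CPM. None of the 9 passed in edgeR. Fold changes of 6 of the 9 were below 0, while Krt14, Epcam and Cldn6 were higher with OPE. The apical ridge is the ectodermal signalling centre at the bud tip. Its 5 markers summed to 23.4 to 34.9 CPM with OPE and 29.1 to 32.7 CPM with vehicle. Most of that sum was Dlx5, at a mean of 22.6 CPM with OPE and 24.2 CPM with vehicle. Fold changes were below 0 for 4 of the 5, and Fgf4 among them fell (edgeR, adjusted p under 0.05). Fgf8 went the other way, at 0.60 ± 0.42 (edgeR adjusted p = 0.598). The part of ectoderm content in the ligand values was not tested.

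Wnt6 had 4.25, 16.7, 12.9 and 6.39 CPM in OPE 1 to 4, against 15.4, 14.9, 12.9 and 15.3 CPM in vehicle 1 to 4. Wnt7b had 6.37, 18.6, 9.09 and 5.40 CPM, against 10.2, 12.3, 9.79 and 11.6 CPM with vehicle. Both were lowest in OPE 1 and OPE 4, and both were highest in OPE 2. Wnt6 gave -0.55 ± 0.34 and Wnt7b -0.16 ± 0.32 (edgeR adjusted p = 0.532 and 0.893). Wnt3, which the ectoderm needs to form the apical ridge, had 2.31, 6.75, 3.19 and 3.33 CPM with OPE and 5.87, 7.09, 5.43 and 7.10 CPM with vehicle. It gave -0.72 ± 0.29 and, without OPE 2, -1.13 ± 0.21 (edgeR adjusted p = 0.311 and 0.0724). Without both OPE 1 and OPE 3 it gave -0.34 ± 0.26 (edgeR adjusted p = 0.747).

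Wnt7a, the dorsal ectoderm signal, gave -0.61 ± 0.33, Wnt10b -0.30 ± 0.25 and Wnt4, which joints also express, -0.03 ± 0.13. Wnt10a moved the other way, with 0.725, 1.21, 1.15 and 0.595 FPKM in OPE 1 to 4 and 0.508, 0.780, 0.577 and 0.497 FPKM in vehicle 1 to 4. It gave 0.69 ± 0.30 (edgeR adjusted p = 0.361), and the groups overlapped. Of the 7 ligands, 6 lay below the vehicle range in OPE 1, 5 in OPE 3 and 5 in OPE 4, against 0 in OPE 2. Above the vehicle range lay 3 in OPE 2, 2 in OPE 3 and 0 in OPE 1 and OPE 4. Of all genes tested, 30.9%, 23.7%, 35.9% and 25.8% lay below the vehicle range in OPE 1 to 4, and 28.8%, 25.4%, 37.4% and 21.9% above it.

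**Figure D4:**
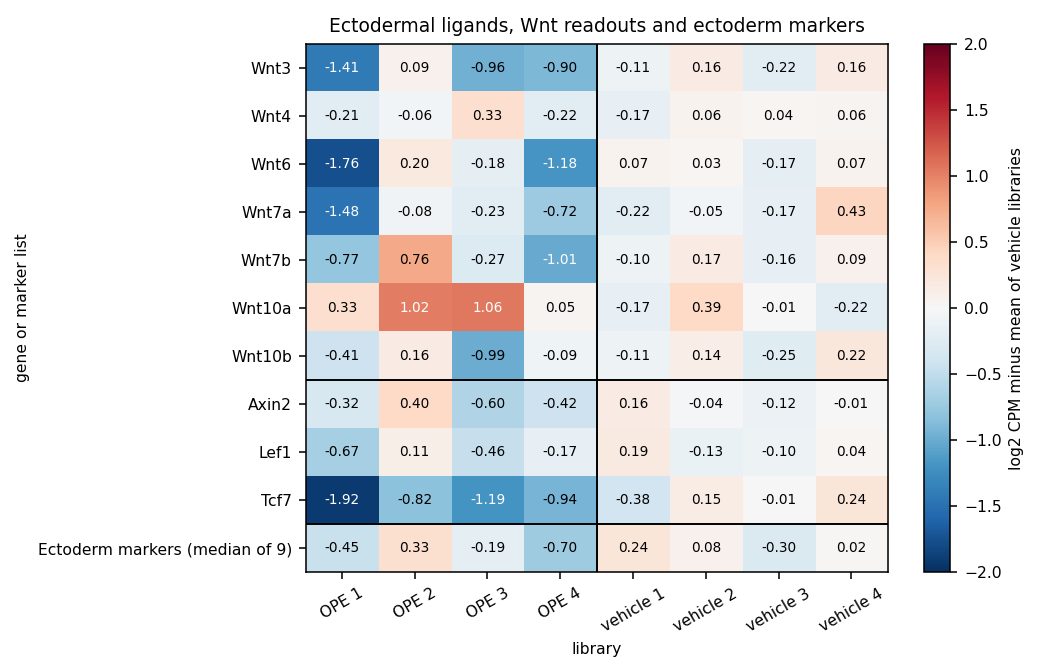
Log2 CPM minus the mean of the 4 vehicle libraries for 7 ectodermal ligands, the 3 readouts and the median of 9 ectoderm markers, by library (columns, OPE left of vehicle). OPE 1, OPE 3 and OPE 4 are mostly low, apart from Wnt10a and, in OPE 3, Wnt4. OPE 2 is near or above the vehicle mean except for Tcf7, which is low in all 4 OPE libraries.

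Over all 47 tested members, OPE 2 was the highest of the 4 OPE libraries for 17 and the lowest for 4. OPE 3 was the highest for 9 and the lowest for 18, OPE 1 for 11 and 13, and OPE 4 for 10 and 12. These counts were not made over all genes. Of all genes tested, OPE 3 also had the largest shares outside the vehicle range, 35.9% below and 37.4% above. Below the vehicle range lay 22, 14, 27 and 22 members in OPE 1 to 4, or 46.8%, 29.8%, 57.4% and 46.8%. Above it lay 10, 11, 10 and 10 members, or 21.3%, 23.4%, 21.3% and 21.3%.

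The rest of the pathway was followed in a list of 67 symbols for secretion, co-receptors, cytoplasmic and nuclear steps, planar polarity and targets, of which 65 were tested. None passed in edgeR, DESeq2 or limma-voom, and at an unadjusted p under 0.05 in edgeR 3 were higher and 2 lower. Of all genes tested, 0.477% passed in edgeR, and at an unadjusted p under 0.05 5.85% were higher and 7.31% lower. The pathway list thus held no excess of such genes. Its median log2 fold change was -0.04. The 2 of smallest p among the lower were Tnfrsf19, a Wnt-induced receptor gene (-0.36 ± 0.12, edgeR adjusted p = 0.224), and Rnf43, a ubiquitin ligase that removes frizzled receptors and is itself a Wnt target (-1.04 ± 0.44, edgeR adjusted p = 0.339). The 2 among the higher were Dvl2, which relays the signal from frizzled (0.26 ± 0.09, edgeR adjusted p = 0.233), and Wls, the carrier of Wnt proteins to the cell surface (0.19 ± 0.08, edgeR adjusted p = 0.351). Tcf7l2, a relative of Tcf7, gave 0.21 ± 0.09 (edgeR adjusted p = 0.376).

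The authors' deposited table gave an adjusted p for 48 members and placed 5 of them under 0.05, all lower with OPE, against 2.68% of all genes with a value and 1.8% lower. In the authors' deposited table Lgr6 had a log2 fold change of -0.67 and an adjusted p of 2.65e-05, and Tcf7 -0.83 and 0.000172. Deposited fold changes of members with few reads were smaller in size than those given here. Wnt3a, for example, had -0.39 there and -1.90 here, while the abundant Sfrp2 had 0.07 in both. The sizes of the 2 sets are therefore not compared. The authors' deposited table also placed Fzd6 (-0.49, adjusted p 0.0124), Sfrp4 (-0.63, 0.0256) and Dkk1 (-0.63, 0.0273) under 0.05. DESeq2 run here on the same counts gave 6 of the 47 members tested, these 5 and Fzd9, which was higher with OPE. Over all 15517 genes it gave 536, of which 178 were higher.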

How the data were processed

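Poly-A RNA of cultured buds was sequenced in 8 libraries, 4 per group, assigned by their titles. CASAVA 1.8, HTSeq 0.6.1, STAR 2.5, DESeq2 (version given as 2) and mm10 are named in the submitters' processing notes. Their roles, the annotation and the strandedness of counting were not given in the sources used here. Per the file headers the authors deposited raw counts per gene, FPKM, log2 fold changes and p-values. The deposited signal columns hold counts divided by a size factor and were not tested. The deposited FPKM values matched counts divided by gene length and library total and were used for levels. The authors' p-value is missing for 3933 genes after adjustment.

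The test was edgeR 4.0.16 on raw counts, run in R 4.3.3 (TMM, filterByExpr, robust quasi-likelihood fit, group as the only term, Benjamini-Hochberg over 15517 genes). The common dispersion was 0.0259. DESeq2 1.42.0 and limma 3.58.1 were alternatives. The standard error is the log2 fold change divided by the root of F. Within a group every pair of libraries differed by more than counting noise, with chi-square over its degrees of freedom of 4.80 or more.

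Members, lists and the alternatives were chosen with earlier results of these data known. Named were members with an unadjusted p under 0.05, the 3 of highest FPKM per role, untested members and, of the pathway list, the 2 of smallest p in each direction; others were named to account for every member, and Tcf7l2 was chosen after its value was seen.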

Additional observations from a re-analysis of the deposited data

Results flagged for a closer look

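Among 94 sets of 4 libraries (47 members, 2 groups), 8 held a library far from the other 3, judged by its gap to the nearest of the others over the whole range of log2 CPM (above the 95% critical value for 4 samples). Chance flags about 5% of such sets. With OPE, OPE 3 was far above the others for Fzd2 (0.91) and Sfrp5 (0.888), and OPE 4 was far below for Rspo2 (0.838) and Wif1 (0.834). With vehicle, vehicle 1 was far below for Wnt4 (0.91) and far above for Wnt9b (0.867), vehicle 3 was far above for Lgr5 (0.909), and vehicle 3 was far below for Wnt6 (0.841).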

How the results depend on the processing

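One member passed the threshold as reported. It was 1 with DESeq2 size factors, a stricter filter, a fit that is not robust, and without both OPE 1 and OPE 3. It was 2, Lgr6 and Tcf7, with upper quartile scaling, library totals, no low count filter, limma-voom, the newer quasi-likelihood method and the replicate block. It was 3 with the gene length trend removed and 6 with DESeq2. Leaving out 1 library gave between 0 (without OPE 2 or any 1 vehicle library) and 2 (without OPE 3 or OPE 4). Of all genes, 74 passed as reported, 131 with library totals, 136 with no filter, 112 with the newer quasi-likelihood method, 322 with the length trend removed (151 higher), 536 with DESeq2 (178 higher) and 62 with the replicate block. Leaving out 1 library gave between 7 (without vehicle 2 or vehicle 4) and 308 (without OPE 3), with 8 without vehicle 1, 12 without OPE 2, 19 without vehicle 3 and 178 without OPE 4. No pathway list gene passed in any setting run. The cause of these moves was not tested. The titles give both groups replicate numbers 1 to 4, but deviations of same-numbered libraries correlated between 0.01 and 0.31, so the numbers were not taken as pairs. The own number was the best match for 2 of 4 numbers.

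For all members tested, the number with a fold change below 0 was 30 as reported and lay between 24 (length trend removed) and 37 (library totals). Each alternative was followed gene by gene for 26 named members, of which 6 changed sign in at least 1 setting: Wnt5b, Fzd8, Lgr4, Dkk3, Rspo3 and Axin2. Wnt5b was -0.028 with upper quartile scaling, -0.052 with library totals, -0.0030 with no filter, -0.0043 with the stricter filter and -0.10 without both OPE 1 and OPE 3, and from -0.059 to 0.055 leaving out 1 library. With the length trend removed Fzd8, Lgr4 and Dkk3 were 0.030, 0.0071 and 0.028. Without both OPE 1 and OPE 3 Dkk3 and Axin2 were 0.0057 and 0.049. Leaving out 1 library, Fzd8 lay between -0.093 and 0.025, Dkk3 between -0.073 and 0.029 and Rspo3 between -0.016 and 0.14. Members under about 1 CPM rest on few reads, which limits their precision.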
